A study of Mus musculus with 14 samples.

Results

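The circadian clock genes described here were Arntl, Clock, Npas2, Per2, Per3, Cry1, Nr1d1, Nr1d2, Dbp and Tef, measured in mouse mammary gland on 14 Affymetrix arrays. Members were taken as the probe sets annotated with 1 of these symbols and no other, which gave 26 probe sets for all 10 genes among 45037 probe sets and 18193 singly annotated genes. For each gene the brightest probe set, by its mean across arrays, was used, and its other probe sets are given beside it. Values are log2 levels, so a difference of 1 is a doubling, and levels are compared between arrays for 1 probe set and not between genes. Female C57BL/6 mice, 11 to 12 weeks old on arrival, were ovariectomized and 7 days later received vehicle, 17beta-estradiol (E2), an estrogen receptor blocker, or E2 with a blocker. The blockers were acolbifene, fulvestrant, raloxifene and tamoxifen, so the 10 groups were vehicle, E2, each blocker alone and E2 with each blocker. All groups were ovariectomized, and each held 8 mice whose glands were pooled and taken 3 h after treatment. The first 2 of these groups, acolbifene and E2+acolbifene were measured on 2 arrays each and the remaining 6 groups on 1 array. Nothing in the labels says that paired arrays are from different pools, so p-values reflect array-to-array spread alone, which may be technical. The labels give no clock time or order of killing, so treatment, the pool and the hour at which a pool was collected cannot be told apart.

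The mammalian clock is a transcriptional loop found in nearly all tissues, the mammary gland included. Arntl (BMAL1) pairs with Clock or Npas2 to activate the Per, Cry, Nr1d and Dbp genes, the Per and Cry proteins repress their own activators, and the Nr1d receptors (REV-ERBs) repress Arntl, Clock and Npas2 through ROR response elements. Transcripts of the activators therefore peak at another time of day than those of Per, Nr1d1 and Dbp, and Dbp and Tef pass the rhythm on through D-box elements in output genes.

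Array medians lay between 7.16 and 7.23, which is no check of likeness since RMA already evens out the arrays. The mean of 18 spike control probe sets ran from 9.86 (E2+tamoxifen) to 10.41 (acolbifene array 1). It was 10.33 and 10.36 with vehicle and 10.01 and 10.04 with E2, and its bearing on the clock genes was not tested. The raw-file names carried a code of unstated meaning, R136 on E2 array 1 and the 6 single arrays and R137 on the other 7. Only the E2 group held both codes, so a term for the code rests on the difference between the 2 E2 arrays. The raw-file name of the raloxifene array shared its middle part with both E2+acolbifene arrays, and whether this bears on its label was not tested. The pairs had 111 (vehicle), 310 (E2), 153 (acolbifene) and 75 (E2+acolbifene) probe sets over 1.5-fold apart. For the clock genes the largest gap within a pair was 0.46, at Dbp in the E2 pair. Mean levels of the marker lists lay between 9.59 and 10.04 for luminal epithelium, 8.47 and 8.90 for basal epithelium and 12.17 and 12.58 for adipocytes, all above the array medians. Skeletal muscle markers varied most, with a mean level from 8.03 on the E2+raloxifene array to 10.25 on E2+acolbifene array 1. In pooled tissue, fewer cells of a type and less RNA per cell cannot be told apart, and this holds for every gene below.

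The loop described above runs through short DNA elements. Promoter sequences are shown for the 5 members with a match to an element named below. RefSeq promoters (build GRCm38.p6, 250 bases before to 50 bases after the annotated start) were matched for 9 of the 10 members. Searched on both strands were the E-box CACGTG, the E-prime box CACGTT, the D-box as TTACGTAA or TTATGTAA and the ROR element as TAGGTCA or TGGGTCA. These letters occurred in 7.15%, 4.68%, 1.06% and 6.45% of 32851 promoters of the same length. Capitals mark the matches, which are descriptions of letters and not of binding.
Per3 (chr4:151044616-151044915, minus strand, 2 D-boxes): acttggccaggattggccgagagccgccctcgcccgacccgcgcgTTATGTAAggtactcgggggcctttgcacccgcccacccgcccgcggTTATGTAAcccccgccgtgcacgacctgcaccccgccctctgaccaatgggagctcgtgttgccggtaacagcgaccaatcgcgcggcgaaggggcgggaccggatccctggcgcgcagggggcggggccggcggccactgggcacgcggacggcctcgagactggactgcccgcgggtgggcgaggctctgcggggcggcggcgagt
Tef (chr15:81802423-81802722, plus strand, first start site, 1 E-box): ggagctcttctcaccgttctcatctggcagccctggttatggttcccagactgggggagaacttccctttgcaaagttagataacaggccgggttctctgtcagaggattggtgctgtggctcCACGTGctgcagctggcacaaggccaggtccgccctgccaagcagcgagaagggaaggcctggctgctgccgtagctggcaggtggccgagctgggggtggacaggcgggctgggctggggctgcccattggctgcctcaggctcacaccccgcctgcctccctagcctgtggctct
Nr1d1 (chr11:98775328-98775627, minus strand, 1 E-prime box read on the opposite strand): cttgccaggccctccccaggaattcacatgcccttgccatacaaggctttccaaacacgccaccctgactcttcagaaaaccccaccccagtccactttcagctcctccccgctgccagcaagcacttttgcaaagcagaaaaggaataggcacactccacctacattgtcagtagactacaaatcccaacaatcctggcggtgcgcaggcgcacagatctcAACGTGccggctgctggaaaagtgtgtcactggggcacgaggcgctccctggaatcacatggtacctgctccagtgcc
Arntl (chr7:113207261-113207560, plus strand, second start site, 1 ROR element): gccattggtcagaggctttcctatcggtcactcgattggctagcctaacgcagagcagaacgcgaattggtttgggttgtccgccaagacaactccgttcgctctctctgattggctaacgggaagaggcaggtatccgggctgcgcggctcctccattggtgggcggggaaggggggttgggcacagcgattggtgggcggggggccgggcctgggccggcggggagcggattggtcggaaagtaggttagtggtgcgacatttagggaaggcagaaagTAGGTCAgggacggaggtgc
Cry1 (chr10:85185005-85185304, minus strand, 1 E-prime box read on the opposite strand and 1 E-box): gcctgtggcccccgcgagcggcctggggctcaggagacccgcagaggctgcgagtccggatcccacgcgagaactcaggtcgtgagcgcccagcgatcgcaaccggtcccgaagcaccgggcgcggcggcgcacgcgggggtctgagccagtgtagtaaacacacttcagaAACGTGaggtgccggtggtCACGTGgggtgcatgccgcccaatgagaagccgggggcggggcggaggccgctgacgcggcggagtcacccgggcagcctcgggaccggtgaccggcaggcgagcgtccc
In Per3 the D-boxes began at -205 and -158 from the start, in Tef the E-box at -127, in Nr1d1 the E-prime box at -28 and in Cry1 the E-prime box at -79 and the E-box at -60. The ROR element of Arntl began at 31 after its second start site, and the window of its first start site held no match. The second start site of Tef also had an E-box, at -138. None of these letters were in the windows of Dbp, Npas2, Clock and Nr1d2. Bases outside the windows were not searched, so elements elsewhere in these genes would not be seen.

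**Figure D1:**
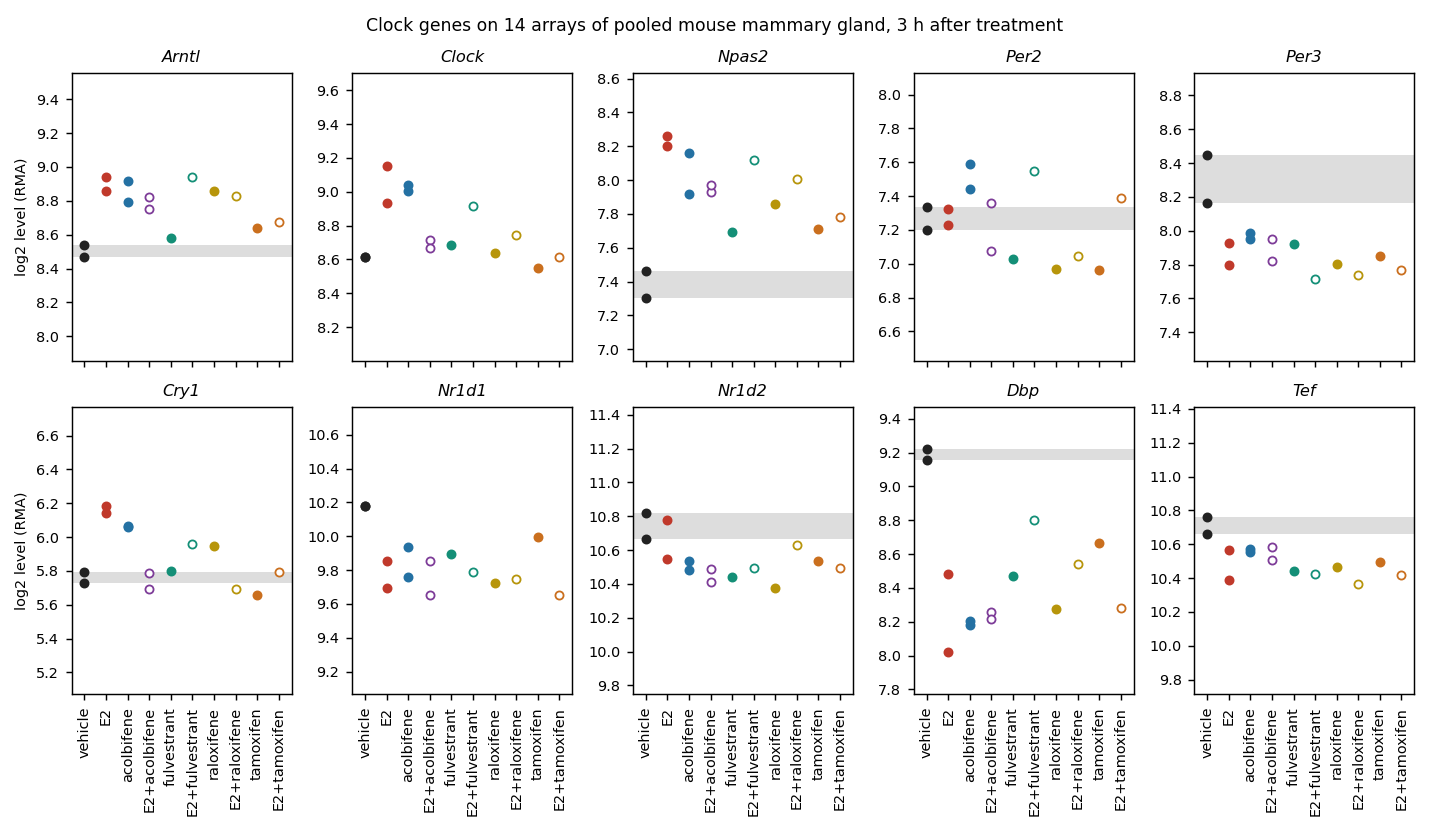
Level of each clock gene (log2, RMA) on each of the 14 arrays, one panel per gene with axes of equal length, points coloured by group and the grey band spanning the 2 vehicle arrays. The 12 other arrays sit below the band for Dbp, Nr1d1, Per3 and Tef and above it for Npas2 and Arntl, while Per2, Clock, Cry1 and Nr1d2 have arrays inside or on both sides of it.

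Dbp, the D-box binding factor that is a main output of the clock, stood farthest from vehicle. Its levels were 9.16 and 9.22 with vehicle, 8.02 and 8.48 with E2, 8.21 and 8.18 with acolbifene, and 8.26 and 8.22 with E2+acolbifene. On the single arrays it was 8.47 (fulvestrant), 8.27 (raloxifene), 8.67 (tamoxifen), 8.80 (E2+fulvestrant), 8.54 (E2+raloxifene) and 8.28 (E2+tamoxifen). Both vehicle arrays were above all 12 others, with a gap of 0.35 to the nearest, E2+fulvestrant. Dbp fell by 0.94 after E2 (SE 0.13, limma adjusted p = 0.00267), 1.91-fold, and by 0.99 after acolbifene (adjusted p = 0.00712) and 0.95 after E2+acolbifene (adjusted p = 0.00763). The acolbifene and E2+acolbifene calls were lost when any 1 of their 4 arrays was left out, with adjusted p up to 0.0753 and 0.0923, while the E2 call held under each of its 11 alternatives. The second Dbp probe set lay between 8.84 and 8.96 with vehicle and between 7.86 and 8.43 elsewhere, again without overlap, and gave -0.995 after E2 (adjusted p = 0.000157), -0.69 after acolbifene and -0.67 after E2+acolbifene. The E2 arrays differed by 0.46 in Dbp and stood apart in muscle markers too, the list median being -0.82 and 0.46 from vehicle on E2 arrays 1 and 2. The part of that difference in Dbp was not tested, and Dbp was below vehicle on both.

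Tef, the related D-box binding factor, had levels of 10.76 and 10.66 with vehicle, 10.39 and 10.57 with E2, 10.56 and 10.57 with acolbifene, and 10.51 and 10.59 with E2+acolbifene. The 6 single arrays ran from 10.36 (E2+raloxifene) to 10.49 (tamoxifen). All 12 were below vehicle, by only 0.07 at the nearest, and the changes were -0.23, -0.15 and -0.16 after E2, acolbifene and E2+acolbifene, with limma adjusted p of 0.199, 0.476 and 0.353. A second Tef probe set fell by 0.53 after E2 (adjusted p = 0.0268) and was also below vehicle on all 12 arrays, whereas the third, a dim one, overlapped vehicle.

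Nr1d1, the REV-ERB alpha receptor that represses Arntl, was at 10.18 on both vehicle arrays. It was at 9.69 and 9.85 with E2, 9.94 and 9.76 with acolbifene, and 9.85 and 9.65 with E2+acolbifene. The single arrays lay between 9.65 (E2+tamoxifen) and 9.99 (tamoxifen), so the groups did not overlap and the nearest array was 0.18 below vehicle. The changes of -0.41 after E2 (95% interval -0.64 to -0.18), -0.33 after acolbifene and -0.43 after E2+acolbifene did not pass (limma adjusted p = 0.0557, 0.168 and 0.082). Nr1d2, REV-ERB beta, was at 10.67 and 10.82 with vehicle and from 10.38 (raloxifene) to 10.78 (E2 array 2) on the others, so it overlapped vehicle through 1 E2 array. Its changes were -0.08, -0.23 and -0.30 in the same order, and its second, lower probe set gave -0.19, -0.29 and -0.19, none past the test.

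Npas2, a partner of BMAL1 that can take the place of CLOCK, moved most among the activators. Its levels were 7.46 and 7.30 with vehicle, 8.26 and 8.20 with E2, 7.92 and 8.16 with acolbifene, and 7.93 and 7.97 with E2+acolbifene. The single arrays were at 7.69 (fulvestrant), 7.86 (raloxifene), 7.71 (tamoxifen), 8.12 (E2+fulvestrant), 8.00 (E2+raloxifene) and 7.78 (E2+tamoxifen). All 12 were above both vehicle arrays, by at least 0.23. Npas2 rose by 0.85 after E2 (SE 0.10, limma adjusted p = 0.00121), 0.65 after acolbifene (adjusted p = 0.0189) and 0.57 after E2+acolbifene (adjusted p = 0.0339). As with Dbp, leaving out any 1 of the 4 arrays ended the acolbifene and E2+acolbifene calls (adjusted p up to 0.136 and 0.207) and no alternative ended the E2 call. A second, dimmer Npas2 probe set was also above vehicle on all 12 arrays and rose by 0.69 after acolbifene (adjusted p = 0.0494), with 0.28 after E2 (adjusted p = 0.269).

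Arntl, the obligate activator of the loop, had levels of 8.47 and 8.54 with vehicle, 8.94 and 8.86 with E2, 8.79 and 8.92 with acolbifene, and 8.75 and 8.83 with E2+acolbifene. The single arrays ran from 8.58 (fulvestrant) to 8.94 (E2+fulvestrant), all above vehicle and the nearest by 0.04. Arntl rose by 0.40 after E2 (limma adjusted p = 0.0359), with 0.35 and 0.29 after acolbifene and E2+acolbifene (adjusted p = 0.104 and 0.133). Its E2 call was lost when any 1 of the 4 arrays was left out, when the replicate number or the raw-file code entered the fit, and when probe sets of a gene were averaged (adjusted p up to 0.325). The second Arntl probe set, with a mean of 6.66, overlapped vehicle and gave -0.13 after E2.

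Clock, the other partner of BMAL1, was at 8.62 and 8.61 with vehicle, 8.93 and 9.15 with E2, 9.002 and 9.04 with acolbifene, and 8.71 and 8.67 with E2+acolbifene. The single arrays lay between 8.55 (tamoxifen) and 8.92 (E2+fulvestrant). E2 and acolbifene arrays were thus above vehicle, while tamoxifen was below it. The E2+tamoxifen array (8.612) was also below, just under the lower vehicle array (8.615). Clock rose by 0.43 after E2 (limma adjusted p = 0.0316, up to 0.165 without vehicle array 1, vehicle array 2 or E2 array 2, and 0.0676 with its probe sets averaged), with 0.40 after acolbifene (adjusted p = 0.082) and 0.08 after E2+acolbifene. Of its 3 other probe sets, the dimmest was above vehicle on all 12 arrays and the other two gave 0.16 and 0.21 after E2, not past the test.

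Cry1, a cryptochrome that represses the activators, had a single and dim probe set whose mean of 5.88 was under the 40th percentile of all probe sets (6.65). It was at 5.80 and 5.73 with vehicle, 6.19 and 6.14 with E2, 6.07 and 6.06 with acolbifene, and 5.79 and 5.70 with E2+acolbifene. The single arrays lay from 5.66 (tamoxifen) to 5.96 (E2+fulvestrant), on both sides of vehicle. Cry1 rose by 0.40 after E2 (limma adjusted p = 0.0273, lost without any 1 of the 4 arrays or with the raw-file code, up to 0.143), with 0.30 after acolbifene (adjusted p = 0.138) and -0.02 after E2+acolbifene. For both Cry1 and Clock the arrays of E2 alone and acolbifene alone were thus above vehicle, and those of the combination were within 0.10 of the vehicle mean.

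Per3, a period protein of the repressor limb, was at 8.45 and 8.16 with vehicle and between 7.71 (E2+fulvestrant) and 7.99 (acolbifene array 2) on the 12 others. E2 arrays were at 7.80 and 7.93, acolbifene at 7.95 and 7.99, and E2+acolbifene at 7.95 and 7.82. No array overlapped vehicle, with a nearest gap of 0.18 beside a gap of 0.28 between the vehicle arrays themselves. Per3 fell by 0.44 after E2 (limma adjusted p = 0.0473, up to 0.286 without vehicle array 1 or either E2 array and lost in 4 further alternatives), with -0.34 after acolbifene (adjusted p = 0.175) and -0.42 after E2+acolbifene (adjusted p = 0.0925). Of its 5 other probe sets, 1 fell by 0.62 after E2 (adjusted p = 0.0239) and was below vehicle on all 12 arrays, and the other 4 overlapped vehicle and gave -0.29 to -0.08 after E2.

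Per2, the period protein whose gene responds to many acute signals, showed no such split. It was at 7.20 and 7.33 with vehicle, 7.23 and 7.32 with E2, 7.59 and 7.44 with acolbifene, and 7.36 and 7.08 with E2+acolbifene. The single arrays were low with fulvestrant (7.03), raloxifene (6.97), tamoxifen (6.96) and E2+raloxifene (7.04) and higher with E2+fulvestrant (7.55) and E2+tamoxifen (7.39). The vehicle arrays lay in the middle of this range. Its change after E2 was 0.01 (95% interval -0.23 to 0.26), and the 2 other probe sets gave 0.00 and -0.27.

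**Figure D2:**
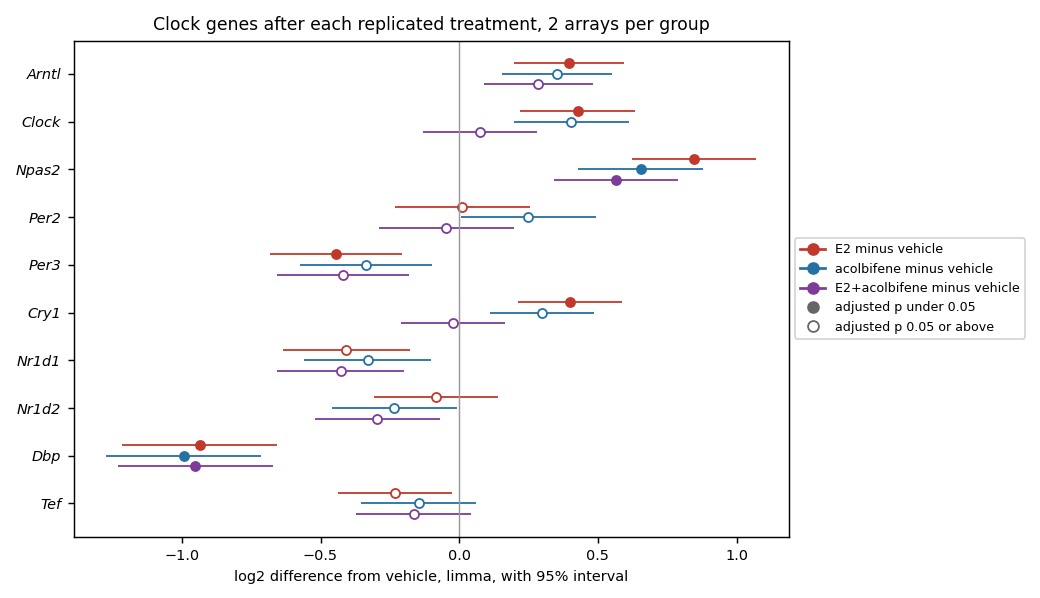
Log2 difference of each clock gene from vehicle after E2, acolbifene and E2+acolbifene (limma, 2 arrays per group, bars are 95% intervals, filled points have an adjusted p under 0.05). Dbp lies near -0.95 and Npas2 between 0.57 and 0.85 in all 3 comparisons, and Clock and Cry1 lie near 0 after E2+acolbifene only.

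Counted over the members, E2 changed 6 of 10 clock genes at a limma adjusted p under 0.05, where 3.74% of all probe sets passed. Npas2, Clock, Cry1 and Arntl rose and Dbp and Per3 fell. The median over members was -0.04 and over all probe sets -0.02, since members moved both ways. Leaving out vehicle array 1 left 2 members, vehicle array 2 left 3, E2 array 1 left 3 and E2 array 2 left 2, and the raw-file code in a fit of all 14 arrays left 3. With the replicate number as a block it was 4. Acolbifene changed 2 members, Dbp and Npas2, against 0.597% of all probe sets, and E2+acolbifene changed the same 2 against 0.837%. Both counts were 0 when any 1 of the 4 arrays was left out. These 3 comparisons share the vehicle arrays, so they are not independent of each other. The mean of the 3 treatments against vehicle changed Dbp (-0.96, SE 0.10, limma adjusted p = 0.00114), Npas2 (0.69, SE 0.08, adjusted p = 0.00242) and Arntl (0.34, adjusted p = 0.0468), 3 of 10 beside 1.39% of all probe sets. The count was 1 without vehicle array 2. Dbp kept this call under all 15 alternatives, Npas2 under 14 and Arntl under 3.

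Set against all 12 other arrays whatever their treatment, 4 of 10 clock genes were lower on every one than on both vehicle arrays, beside 3.76% of all probe sets. Npas2 and Arntl were higher on every one, beside 2.48%. This count needs no fit and includes the 6 single arrays. Other measures on these arrays stand beside these counts. All 12 arrays were above vehicle in the median of 14 glucocorticoid-responsive genes, by 0.31 (fulvestrant) to 0.79 (E2 array 1), and 12 of 14 rose after E2, 10 after acolbifene and 10 after E2+acolbifene with none falling past the test. Lymphocyte markers, 8 of 9 measured, had a mean level of 10.67 and 10.71 with vehicle and 10.25 to 10.55 on the others. Of the 8, 2, 0 and 1 were lower in these 3 comparisons. Of all probe sets, 3.74%, 0.597% and 0.837% passed in them, in either direction. The log2 difference between 3' and 5' probe sets of Actb, a sign of RNA quality, was 0.28 and 0.24 with vehicle, 0.41 and 0.43 with E2, 0.25 to 0.31 on the acolbifene and E2+acolbifene arrays and 0.32 to 0.41 on the single arrays. The part of each of these in the clock gene values was not tested.

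Among the other marker lists, E2 raised 2 of 12 skeletal muscle, 3 of 8 basal epithelium and 1 of 8 fibroblast markers. It lowered 1 of 7 adipocyte, 1 of 7 brown adipocyte, 2 of 8 luminal epithelium and 2 of 8 macrophage markers. Changed were 0 of 7 endothelium and 0 of 7 keratinocyte markers, and 3.74% of all probe sets in either direction. In the muscle list the E2 arrays lay on opposite sides of vehicle, with medians of -0.82 and 0.46. Muscle markers were high on both E2+acolbifene arrays (list median 0.75 and 0.69 from vehicle) and on the fulvestrant array (0.77), and low on the E2+raloxifene array (-1.50). Dbp was below vehicle on each of these 4 arrays, and the part of muscle content in its level was not tested.

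Acolbifene given with E2 was set against E2 alone and against acolbifene alone to ask how the 2 agents combined. Cry1 fell by 0.42 against E2 (SE 0.09, limma adjusted p = 0.0286) as the 1 member of 10 that passed, beside 3.66% of all probe sets. Against acolbifene alone, Cry1 fell by 0.32 (adjusted p = 0.042), again 1 of 10 and beside 9.20% of all probe sets. Clock had -0.35 and -0.33 in these comparisons (adjusted p = 0.0601 and 0.0509). The change of Dbp, on its brightest probe set, was -0.02 (95% interval -0.30 to 0.26) against E2 and 0.04 (-0.24 to 0.32) against acolbifene. The second Dbp probe set had fallen less from vehicle after E2+acolbifene than after E2, as given above. Each Cry1 call was lost when any 1 of its 4 arrays was left out, the first (adjusted p up to 0.166) also with the raw-file code and the second (up to 0.219) also with the raw-file code, the replicate block or an intensity trend. The counts were then 0, except that Clock passed against acolbifene in place of Cry1 with the code and with the trend.

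The effect of acolbifene in the presence of E2 was then compared with its effect in the absence of E2, which is the interaction of the 2 agents. Clock (-0.76, SE 0.13), Cry1 (-0.72, SE 0.12), Npas2 (-0.94, SE 0.14) and Dbp (0.98, SE 0.18) differed at limma adjusted p of 0.0171, 0.015, 0.0106 and 0.0194. These were 4 of 10 members, beside 4.47% of all probe sets. For Dbp the changes from vehicle were -0.94, -0.99 and -0.95 with E2, acolbifene and both, and for Npas2 0.85, 0.65 and 0.57, so both agents together did not add up. For Clock they were 0.43, 0.40 and 0.08, and for Cry1 0.40, 0.30 and -0.02. Vehicle enters this contrast once, so a pair of vehicle arrays that stands apart from the rest also moves it. The changes of Dbp from vehicle were of like size, so its value in this contrast is not separate from the vehicle gap. The count was 1 without vehicle array 1, acolbifene array 1 or E2+acolbifene array 2, and the remaining gene was Npas2.

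Fulvestrant, raloxifene and tamoxifen had 1 array each, alone and with E2, and were fitted with a term for the raw-file code, on the assumption that a lone array varies like the replicated groups. The labels used here state no blocker doses, so differences between blockers are not at matched doses. No member passed in these 15 comparisons. In percent of all probe sets, 0.153 (fulvestrant), 0.00888 (raloxifene) and 0.0111 (tamoxifen) passed against vehicle, and 0, 1 and 0 members had an unadjusted limma p under 0.05, beside 5.52%, 4.8% and 4.79% of all probe sets. Before any term for the code, Dbp was below the vehicle mean by 0.72, 0.91 and 0.52 on these 3 arrays. With the term the differences were -0.26, -0.46 and -0.06, because the term takes over the gap of 0.46 between the 2 E2 arrays. Without the term raloxifene changed 1 member, Dbp.

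With E2 present, the percent of all probe sets that passed was 0.0222 for E2+fulvestrant, 0.0955 for E2+raloxifene and 0.0133 for E2+tamoxifen against E2, with 1, 2 and 3 members at an unadjusted p under 0.05, beside 4.29%, 7.96% and 14.4% of all probe sets. The member farthest from E2 was Dbp under E2+fulvestrant, higher by 0.78 (95% interval 0.51 to 1.05, limma adjusted p = 0.127). Against the same blocker without E2 the percent that passed was 0.384 (fulvestrant), 0.0333 (raloxifene) and 0.18 (tamoxifen), with 4, 1 and 3 members at an unadjusted p under 0.05, beside 7.37%, 4.35% and 9.33%. E2+fulvestrant differed from fulvestrant by 0.36 for Arntl, 0.42 for Npas2, 0.33 for Dbp and 0.52 for Per2 (adjusted p from 0.411 to 0.52). The sets of comparisons share the E2 and the blocker arrays.

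Between blockers without E2, the percent of all probe sets that passed was 0.00222 for raloxifene against tamoxifen, 0.0333 for fulvestrant against raloxifene and 0.0466 for fulvestrant against tamoxifen, with 2, 0 and 0 members at an unadjusted limma p under 0.05, beside 3.84%, 3.13% and 3.68% of all probe sets. Fulvestrant is a steroid, while raloxifene and tamoxifen are not. Dbp differed by 0.19 (95% interval -0.08 to 0.46) between fulvestrant and raloxifene and by -0.20 (-0.46 to 0.07) between fulvestrant and tamoxifen. With E2, the percent was 0.102 for E2+raloxifene against E2+tamoxifen, 0.0644 for E2+fulvestrant against E2+raloxifene and 0.0289 for E2+fulvestrant against E2+tamoxifen, with 0, 1 and 2 members at an unadjusted p under 0.05, beside 9.54%, 5.73% and 9.78%. Per2 was higher by 0.51 with E2+fulvestrant than with E2+raloxifene (adjusted p = 0.708), and Dbp by 0.52 than with E2+tamoxifen (adjusted p = 0.452).

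The clock genes were also averaged as 2 sets, as a description with no test. The first set was Per2, Per3, Nr1d1, Nr1d2, Dbp and Tef, the second Arntl, Clock, Npas2 and Cry1, and each gene was centred on its mean over the 14 arrays. The first set minus the second was 0.55 and 0.58 on the vehicle arrays. On the others it ran from -0.40 (E2 array 1) to 0.18 (tamoxifen), with E2 array 2 at -0.20, acolbifene at -0.09 and -0.24, and E2+acolbifene at 0.00 and -0.10. Fulvestrant (0.07), raloxifene (-0.16), E2+fulvestrant (-0.12), E2+raloxifene (-0.08) and E2+tamoxifen (0.02) lay in the same range. Vehicle was higher than the mean of the 12 others by 0.66, beside an SD of 0.10 within pairs, which may be technical. This difference restates the levels of the same genes given above and is not separate from them. Vehicle was high in the first set (0.31 and 0.30) and low in the second (-0.24 and -0.28). The tamoxifen array was low in the second set too (-0.19) and differed from vehicle mainly in the first (-0.01). Leaving out any 1 member gave 0.56 (without Npas2) to 0.72 (without Per2).

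**Figure D3:**
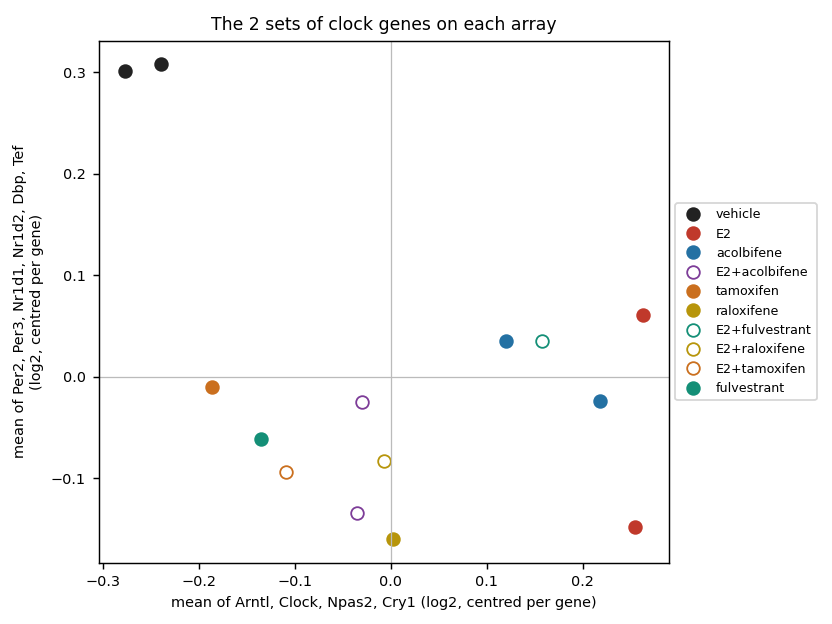
Each point is 1 array, with the mean of Arntl, Clock, Npas2 and Cry1 on the horizontal axis and the mean of Per2, Per3, Nr1d1, Nr1d2, Dbp and Tef on the vertical axis (log2, each gene centred on its 14-array mean). The vehicle arrays sit at the upper left, at -0.24 and -0.28 on the horizontal and 0.31 and 0.30 on the vertical axis, and every other array is below 0.07 on the vertical axis.

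Across arrays some members moved together even without the vehicle arrays. These correlations describe arrays that share groups and codes and have no p. Arntl and Npas2 had r = 0.93 over 14 arrays and 0.90 over the 12 without vehicle. Clock and Cry1 had 0.86 and 0.85, and Per3 and Tef 0.89 and 0.71. Npas2 and Dbp had -0.71 and -0.22, and Arntl and Dbp -0.66 and -0.21, so these correlations were smaller in size without vehicle. Arntl and Nr1d1 had -0.75 and -0.45, while Clock and Per2 had 0.59 and 0.65 and Clock and Nr1d2 0.18 and 0.58. Nr1d1 and Dbp had 0.80 and 0.43. Per3 and Dbp, both lower after each treatment, had 0.60 over 14 arrays and -0.35 over 12.

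Of 22 other clock genes on a fixed list, 20 were measured. E2 changed 3 of them, acolbifene 2 and E2+acolbifene 2, and the mean of the 3 treatments 3, beside the percentages of all probe sets given above. Per1, the period gene that glucocorticoid and cAMP signals induce directly, was at 9.10 and 9.12 with vehicle, 9.58 and 9.71 with E2, 9.88 and 9.73 with acolbifene, and 9.57 and 9.66 with E2+acolbifene. It rose by 0.53, 0.69 and 0.51 (limma adjusted p = 0.0117, 0.00946 and 0.0365). On single arrays it was near vehicle for fulvestrant (9.07) and raloxifene (9.16) and highest for E2+fulvestrant (9.44). Per1 is also 1 of the 14 glucocorticoid-responsive genes counted above.

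Nfil3 (E4BP4), which represses through the D-box where Dbp activates, was at 7.14 and 7.47 with vehicle, 8.26 and 8.17 with E2, 8.18 and 7.93 with acolbifene, and 7.66 and 7.57 with E2+acolbifene. It rose by 0.91 after E2 (limma adjusted p = 0.0023) and 0.75 after acolbifene (adjusted p = 0.0225) and was above vehicle on all 12 arrays. It fell by 0.60 in E2+acolbifene against E2 (adjusted p = 0.0286) and by 0.44 against acolbifene (adjusted p = 0.0469). As for Cry1 and Clock, the arrays of the combination lay below those of either agent alone. Bhlhe40 (DEC1), a repressor of BMAL1 activity, was at 10.44 and 10.53 with vehicle and 10.43 and 10.60 with acolbifene, but 9.81 and 9.93 with E2 and 9.82 and 9.88 with E2+acolbifene. It fell by 0.62 after E2 (adjusted p = 0.00551), by 0.63 after E2+acolbifene (adjusted p = 0.0143) and by 0.66 in E2+acolbifene against acolbifene (adjusted p = 0.00871). Bhlhe40 thus divided the replicated arrays by E2, also under acolbifene, which no member did. The single arrays were at 10.14, 10.04 and 10.16 without E2 (fulvestrant, raloxifene, tamoxifen) and at 10.01, 10.00 and 9.91 with it.

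Of the remaining other clock genes, Ciart, a repressor of BMAL1, rose by 0.49 in E2+acolbifene against E2 (limma adjusted p = 0.0328). Against acolbifene, E2+acolbifene lowered 4 of 20, which were Bhlhe40, Nfil3, Nampt (-0.47) and Timeless (-0.35). Of all 45037 probe sets, 2555 were lowered in this comparison and 9.2% passed in either direction. Nampt makes NAD and its 3 probe sets fell together. In the difference of the acolbifene effects 3 of 20 passed, beside 4.47% of all probe sets. They were Nfil3 (-1.35), Per1 (-0.72) and Timeless (-0.57), though a second Timeless probe set went the other way (0.74). Cry2, the second cryptochrome, was 9.08 and 9.18 with vehicle and 8.56 to 9.08 elsewhere, the highest just under vehicle, and passed in none of these 7 comparisons. Among the 20, Cry2 was the 1 gene below vehicle on all 12 arrays and Nfil3 the 1 above.

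**Figure D4:**
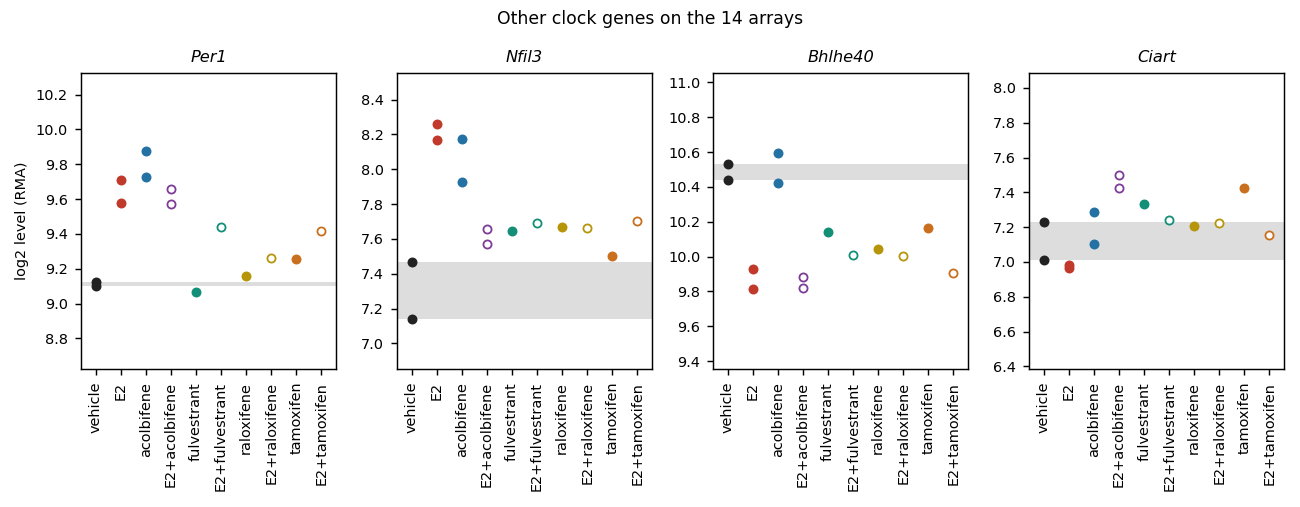
Level (log2, RMA) of Per1, Nfil3, Bhlhe40 and Ciart on each of the 14 arrays, points coloured by group and the grey band spanning the 2 vehicle arrays. Bhlhe40 is near 10.5 with vehicle and acolbifene and below 10.2 on the other arrays, and Nfil3 is above the vehicle band on all 12 others.

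The genes whose pattern over the 14 arrays was most like that of Dbp were sought among 7016 genes of above-median level and spread, as a description. Leaving members out, they were Mtarc1, a mitochondrial reductase (r = 0.91, and 0.73 without the vehicle arrays), Mmd (0.90 and 0.72), Cyb5b (0.88 and 0.86), Alkbh7 (0.87 and 0.59) and Prune2 (0.87 and 0.66). The most opposite were the corepressor gene Rcor1 (-0.86 and -0.67), Gpr182 (-0.85 and -0.50), Slc10a6 (-0.83 and -0.65), the transcription factor gene Cebpd (-0.81 and -0.38) and the matricellular gene Ccn2 (-0.80 and -0.30). Members were ranked too but are not named again here: over the 14 arrays Npas2 was closer to Arntl than any gene of this list. Outside the clock genes, those most like Arntl were Fnip1 (0.89 and 0.79), the endocytic receptor gene Lrp1 (0.86 and 0.77), Ankrd9 (0.85 and 0.66), the creatine kinase gene Ckb (0.84 and 0.77) and the kinase gene Mapkapk2 (0.84 and 0.79). All 15 were ranked with the vehicle arrays in, and each stood apart from the mean of the 12 others at vehicle by 0.21 (Ckb) to 0.92 (Ccn2) in size.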

How the data were processed

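The deposited values are log2 levels per probe set; the submitters' processing notes name RMA as the method the authors used. RNA per group was 20 ug, per the labels. The array design text of the labels names another chip than the probe set names show. The members, gene lists and tests were chosen with earlier results of these data known. Of 45037 probe sets (64 control probe sets left out), 34945 carried 1 gene symbol, 932 several and 9160 none. limma 3.58.1 in R 4.3.3 was fitted over all probe sets (lmFit, eBayes), on the 8 arrays of the replicated groups or, for single arrays, on all 14 with a term for the raw-file code, with Benjamini-Hochberg adjustment and a threshold of 0.05. These leave 4 and 3 residual degrees of freedom, and the fits were tested on simulated data. Array number limits the precision. Named were all members, the other clock genes and, by Pearson r, the genes most like Dbp and Arntl. The replicate numbers did not pair the arrays: deviations of same-numbered arrays correlated at -0.12 to 0.12, so the main fit has no replicate block. Alternatives were the replicate block, an intensity trend, removal of dim probe sets, another quantile normalization, all 14 arrays, the mean over probe sets and leaving out each array.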

Additional observations from a re-analysis of the deposited data

Results flagged for a closer look

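The effect of acolbifene on 4 of 10 clock genes differed between arrays with and without E2, by limma's test of the interaction. Of all probe sets, 4.47% passed this test. Clock had an acolbifene effect lower by 0.76 with E2 than without it (-0.76), Cry1 by 0.72 (-0.72) and Npas2 by 0.94 (-0.94). Dbp had one higher by 0.98. These values are from the brightest probe set of each gene. Npas2 kept its call under all 15 alternatives, Clock under 10 of 15 and Dbp under 11 of 15. Averaging the probe sets of a gene ended the Clock call and left those of Npas2 and Dbp. Cry1, with its single dim probe set, kept it under 11 of 14. The vehicle arrays enter this contrast and stood apart from the other 12 in Dbp and Npas2. On the brightest Dbp probe set the changes from vehicle with E2, acolbifene and both were of like size, as given above. The Dbp value here is therefore not separate from that vehicle gap. The part of the vehicle arrays in the values of Clock, Cry1 and Npas2 was not tested.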

How the results depend on the processing

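No called value of a clock gene changed sign under any alternative: of the values for single genes, 742 kept their side of the threshold, 76 lost it and 25 gained it. Members called were 6 for E2 against vehicle, 3 with the raw-file code in a fit of all 14 arrays, 4 with the replicate block and 2 to 3 with 1 array left out. For acolbifene against vehicle and for E2+acolbifene against vehicle they were 2, 4 with an intensity trend and 0 to 0 with 1 array left out. For E2+acolbifene against E2 the count of 1 became 2 with the trend, 0 with the code and 0 with 1 array left out; against acolbifene it became 0 with the replicate block and 0 with 1 array left out. The mean of the 3 treatments gave 3, 6 with the trend, 5 without dim probe sets and 1 to 2 with 1 array left out; the difference of the acolbifene effects gave 4, and 1 to 4 with 1 array left out. Raloxifene against vehicle had 1 without the code and E2+fulvestrant against E2 1 with the trend. The replicate block changed no other count by over 1.5 times. The difference of the 2 sets was 0.53 with probe sets of a gene averaged, against 0.66. The causes of these differences were not tested.

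Probe sets called ranged from 430 to 2720 (E2), 27 to 1437 (acolbifene) and 34 to 1733 (E2+acolbifene) against vehicle, beside 1685, 269 and 377. They ranged from 116 to 3030 (1649) for E2+acolbifene against E2, 38 to 7219 (4142) against acolbifene, 89 to 1499 (625) for the mean and 186 to 4176 (2011) for the difference. The low ends were fits without 1 array and the high ends the intensity trend. In the single-array comparisons 1 to 173 were called, and 0 to 1453 under alternatives. E2 with a blocker against E2 could not be fitted with the code when an E2 array was left out. With 1 or 2 arrays per group the smallest change of a member that passed in the replicated comparisons was -0.32, for Cry1.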
